A study of Mus musculus with 12 samples.

Results

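The Vmn2r genes encode the type 2 vomeronasal receptors of the mouse, and their nucleosome calls were counted in male germ cells. All RefSeq protein-coding genes on the mm10 autosomes whose symbol is Vmn2r and a digit were taken, which gave 122 of 20661 autosomal protein-coding genes. The choice used the symbol alone and no measured value. Each gene was given a window of its body with 1000 bp on each side, and together these windows covered 3.437 Mb.

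The study digested chromatin of 2 stages of spermatogenesis with micrococcal nuclease (MNase), an enzyme that cuts the DNA between nucleosomes, and sequenced what remained. There were 12 samples in 6 groups of 2, all from testes of male SV129 mice aged 8 to 12 weeks, with no altered allele named in the labels. The meiotic fraction (M, titled as meiotic spermatid in the labels) and the round spermatid fraction (RS) were each digested with 0.5, 1 or 2 U of MNase for 7.5 min at 37 °C, and RS digestions held 2 times as many cells. Fractions came from velocity sedimentation of testes pooled from 11 mice per collection and were at least 85% pure under the microscope; the lists hold no expression values, so the stages could not be checked against marker genes. For each group the authors deposited 1 list of nucleosome calls made from both samples. A call is an interval of 140 bp with a p-value, placed here by its midpoint.

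Each Vmn2r receptor is a class C G protein-coupled receptor with a large extracellular domain that binds ligands. They are known from neurons in the basal layer of the vomeronasal organ, where a neuron uses one or few of them together with the G protein subunit encoded by Gnao1 and the channel encoded by Trpc2. Known ligands are peptides and proteins from tears, urine and other secretions, among them the Esp and Mup families. The genes lie in clusters of recent duplicates beside many pseudogenes, and a role for them in male germ cells is not part of their textbook description.

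Because the members are recent duplicates, the sequences of their start regions are given first. RefSeq promoter windows on mm10, from 250 bases before to 50 bases after a listed start of the gene, were matched by gene identifier for 115 of the 122 members. For some members, among them Vmn2r1, Vmn2r2 and Vmn2r96, this window lies inside the gene body, kilobases from its outer end. Only Vmn2r44 and Vmn2r88 had a call centred in this window. The first is shown because it alone was called there in 2 lists, the second because it was called in 1. Vmn2r31 and Vmn2r49 are shown because another member repeats their window letter for letter. Sequences run 5′ to 3′ on the gene's strand. Capitals mark the called stretch in Vmn2r44 and Vmn2r88, and in Vmn2r31 the bases that differ from Vmn2r44.
Vmn2r44 (chr7:8383189-8383488, minus strand): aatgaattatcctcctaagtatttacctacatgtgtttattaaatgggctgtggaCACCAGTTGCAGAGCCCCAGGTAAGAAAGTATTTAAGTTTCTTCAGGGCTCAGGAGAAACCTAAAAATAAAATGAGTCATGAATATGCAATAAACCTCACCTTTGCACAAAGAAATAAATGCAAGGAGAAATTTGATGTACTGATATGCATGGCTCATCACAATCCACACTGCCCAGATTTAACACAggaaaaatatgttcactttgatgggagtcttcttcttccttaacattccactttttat
Vmn2r31 (chr7:7399578-7399877, minus strand, the same letters as Vmn2r33 at chr7:7566737-7567036): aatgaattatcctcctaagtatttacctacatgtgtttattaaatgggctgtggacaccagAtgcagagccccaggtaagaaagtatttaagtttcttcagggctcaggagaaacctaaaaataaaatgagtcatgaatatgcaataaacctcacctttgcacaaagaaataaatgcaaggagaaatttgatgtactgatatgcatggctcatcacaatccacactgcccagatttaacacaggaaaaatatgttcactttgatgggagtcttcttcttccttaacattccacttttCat
Vmn2r49 (chr7:9992090-9992389, minus strand, the same letters as Vmn2r32 at chr7:7479924-7480223): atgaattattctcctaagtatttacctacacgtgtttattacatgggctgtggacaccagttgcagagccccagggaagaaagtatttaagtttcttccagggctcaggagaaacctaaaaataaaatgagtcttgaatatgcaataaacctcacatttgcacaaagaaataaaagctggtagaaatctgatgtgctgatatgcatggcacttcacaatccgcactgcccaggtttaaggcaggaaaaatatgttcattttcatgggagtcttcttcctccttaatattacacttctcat
Vmn2r88 (chr14:51410751-51411050, plus strand): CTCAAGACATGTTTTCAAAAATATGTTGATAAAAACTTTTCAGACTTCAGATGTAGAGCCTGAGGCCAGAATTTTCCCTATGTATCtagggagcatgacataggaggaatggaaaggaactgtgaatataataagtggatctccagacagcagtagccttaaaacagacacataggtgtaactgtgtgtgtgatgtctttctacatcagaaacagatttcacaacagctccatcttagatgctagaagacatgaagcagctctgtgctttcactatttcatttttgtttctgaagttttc

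The windows of Vmn2r44 and Vmn2r31 differed at 2 of 300 positions, T62A and T298C, counted from 1 at the first printed base. Vmn2r44 had 5 calls in its promoter window, 2 in M at 1 U and 3 in RS at 1 U, spanning bases 56 to 242. Vmn2r31 and Vmn2r33, whose windows were 99.33% identical to it, had none there. The call of Vmn2r88 came from M at 0.5 U and covered bases 1 to 86. All protein-coding promoters had calls in at least 2 lists in 0.523% of 20084 windows, and in any list in 5.014%, so 2 called windows of 116 (Vmn2r29 has 2 windows) is a share below that of all promoters.

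Start regions of members were low in G and C, with a median of 38% (lowest 29%, highest 62.33%), against 57% over all promoters, 36% for Vmn1r genes and 35% for olfactory receptor genes. The letters TATAAA, searched on both strands, were in 23.28% of member windows and in 12.71% of all promoters. A run AAAAAA, searched likewise, was in 27.59% against 16.53%, and the pair CG was in 71.55% against 95.6%. These are matches of letters in windows of equal length and say nothing of what binds there. The limit on the listed starts holds for them too, and for the shares of G and C. Of the 115 members, 68 had another member whose window was at least 90% identical, 45 at least 95%, and 25 at least 98%. In 4 pairs the windows were identical. How reads that fit several places were treated is not given in the sources used here, so a call in one of these copies could not be assigned to it with certainty.

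The lists differed in size. Autosomal calls numbered 39374, 56941 and 62388 in M at 0.5, 1 and 2 U, and 175736, 39241 and 24905 in RS. The p-values fit upper tails of a Poisson distribution with a minimum of 6 reads per call in every list, and 65.38% to 69.47% of calls stood at that minimum. The number of sequenced reads behind a list is unknown. Counts are therefore given per 100000 autosomal calls, or as a density over the autosomal mean, where 1 is the mean over 19 autosomes. Brackets hold 95% intervals from the counts; they reflect counting error alone, and since overlapping calls are not independent they are narrower than they should be. No list has a replicate, so no test of the stages was possible, and a difference between samples of a group cannot be told apart from one between groups.

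Calls over the Vmn2r genes were densest in the lightly digested meiotic fraction. The member windows held 117, 135 and 98 calls in M at 0.5, 1 and 2 U, which is a density of 2.08 (1.72 to 2.49), 1.66 (1.39 to 1.962) and 1.10 (0.892 to 1.34) times the autosomal mean. In RS they held 353, 80 and 35 calls, or 1.40 (1.26 to 1.56), 1.425 (1.13 to 1.77) and 0.983 (0.684 to 1.37) times the mean. Both lists at 2 U had intervals that include the autosomal mean, and the other 4 lay above it. Without 10 kb bins that hold more than 20 calls in any list, M at 2 U also lay above it, at 1.25 (1.01 to 1.52). With only calls above the minimum of implied reads, both 1 U intervals included the mean, at 1.34 (0.914 to 1.89) in M and 1.36 (0.854 to 2.06) in RS. All protein-coding windows lay below the mean in each list, at 0.709, 0.790 and 0.861 in M, against 0.860, 0.904 and 0.922 in RS.

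**Figure D1:**
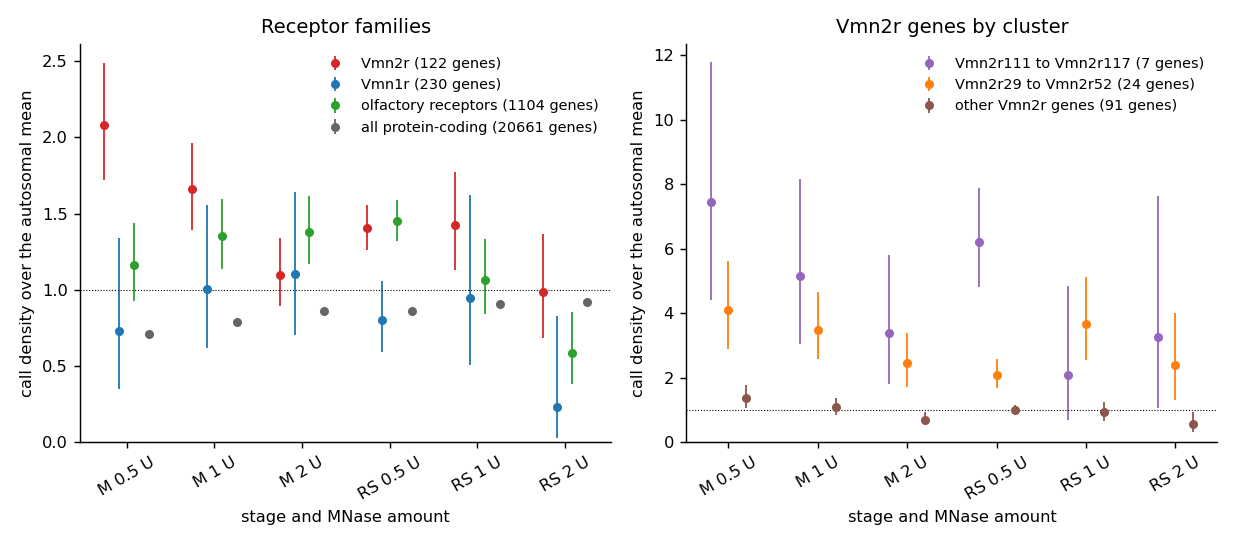
Call density over the autosomal mean (vertical axis, dotted line at 1) in each of the 6 lists (horizontal axis), with 95% Poisson intervals from the counts. Left, Vmn2r genes went from 2.08 to 1.10 across the M lists while all protein-coding genes went from 0.709 to 0.861; right, 2 clusters lay above the other 91 Vmn2r genes in all 6 lists.

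The meiotic titration changed the Vmn2r share by -0.92 (-1.31 to -0.53) on the log2 scale from 0.5 to 2 U. In RS the same step gave -0.50 (-0.99 to 0.00092), and the difference between the stages, RS minus M, was 0.42 (-0.21 to 1.05), which includes 0. In M the other receptor families did not change beyond counting error. Olfactory receptor genes, the main family of odorant receptors, had 82, 138 and 154 calls there, a change of 0.24 (-0.14 to 0.63). Vmn1r genes, the type 1 vomeronasal receptors, had 10, 20 and 24 calls, a change of 0.56 (-0.48 to 1.60). The Vmn2r change minus that of the olfactory receptors was -1.16 (-1.71 to -0.61), minus that of Vmn1r genes -1.48 (-2.59 to -0.36), and minus that of all protein-coding genes -1.20 (-1.59 to -0.81). In RS the order was not the same: olfactory receptors changed by -1.29 (-1.86 to -0.73), so that the Vmn2r change minus theirs was 0.79 (0.041 to 1.55).

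The families differ in gene length, which moves with these counts. Vmn2r genes had a median length of 24.64 kb, from 8.397 to 142.7 kb, with a coding part that is split over several exons. Vmn1r and olfactory receptor genes, at medians of 0.924 and 0.950 kb, consist of windows that are mostly flanks. The part of this difference in the results was not tested.

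Set per 100000 autosomal calls, the Vmn2r windows had 297.2 calls in M, against 200.9 in RS at 0.5 U, 237.1 and 203.9 at 1 U, and 157.1 and 140.5 at 2 U. The log2 ratio of RS over M was -0.57 (-0.87 to -0.27) at 0.5 U, -0.21 (-0.61 to 0.18) at 1 U and -0.15 (-0.70 to 0.41) at 2 U. The stages thus differed beyond counting error at 0.5 U, where RS also had by far the longest list, and not at 1 or 2 U. With only calls above the minimum of 6 implied reads the ratio at 0.5 U was -0.39 (-0.93 to 0.15), so that this difference was no longer beyond counting error. The mean of the 3 amounts was -0.31 (-0.56 to -0.062). Pairing lists with about equal MNase per cell (RS at 1 U with M at 0.5 U, RS at 2 U with M at 1 U) gave a mean of -0.64 (-0.98 to -0.30). The mean of the 3 amounts turned to 0.11 (-0.32 to 0.55) when only calls above the minimum were kept, an interval that includes 0. Without the 0.5 U lists the mean was -0.18 (-0.52 to 0.16).

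All protein-coding windows had a log2 ratio of RS over M of 0.28 at 0.5 U, 0.20 at 1 U and 0.099 at 2 U. The Vmn2r ratio minus theirs was -0.85 (-1.15 to -0.54), -0.41 (-0.81 to -0.010) and -0.25 (-0.80 to 0.31). The bins of 10 kb with more than 20 calls, of which there were 260, hardly touched the members. One such bin, chr7:10030001-10040000, overlapped the window of Vmn2r50, and it took 0 of the M calls and 2, 2 and 3 of the RS calls at 0.5, 1 and 2 U from the members. Without these bins the ratios were -0.69, -0.20 and -0.16, with a mean of -0.35 (-0.61 to -0.100).

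A call in at least 1 list was found for 101 of the 122 members (82.79%), against 66.5% of all autosomal protein-coding genes. Members are longer than most genes, so the share was also taken over other genes within 10% of each member's window length, where it was 75.34%. By list, 41 members (33.61%) had a call in M at 0.5 U, against 15.3% of all genes and 10.35% of genes of like length. At 1 U 52 members (42.62%) had one, against 23.8% and 19.78%, and at 2 U 38 members (31.15%), against 28.9% and 26.13%. In RS the numbers were 88 members (72.13%) at 0.5 U, against 50% and 53.91%. They were 32 members (26.23%) at 1 U against 23.3% and 19.76%, and 18 members (14.75%) at 2 U against 17.7% and 14.29%. The member share at 2 U was thus near the background in both stages.

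By mean calls per 100000 over the 3 amounts, 56 members (45.9%) had more in M, against 26.3% of all genes, and 45 members (36.89%) had more in RS, against 40.1%. Among genes of like length the shares were 28.78% and 46.56%. Of those that differed at all, 55.45% of members and 39.63% of all genes had more in M. The median member had 4 calls over the 6 lists, against 2 for all protein-coding genes. Of the members, 26 had 10 or more, 9 had 1 and 21 had none. The shares of all genes with 10 or more calls, or with 1, were not counted. Per 10 kb of window the median member had 1.55 calls, summed over the 6 lists, against 0.744 for all protein-coding genes. Among the members, calls and window length had a rank correlation (Spearman) of 0.34 over 122 genes, which share the same lists.

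**Figure D2:**
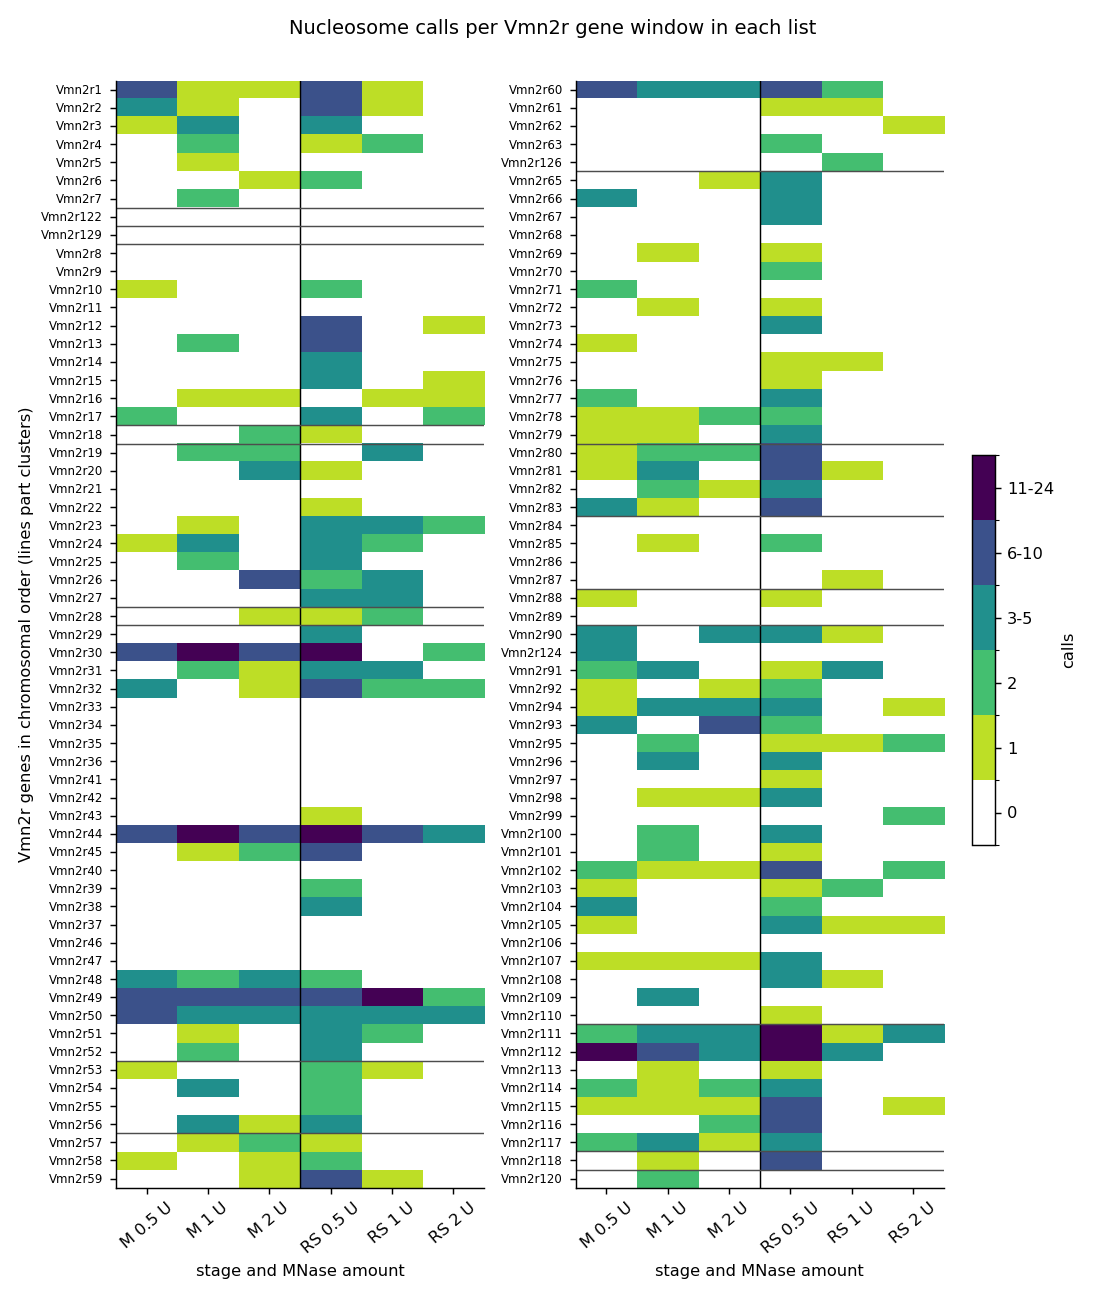
Calls in the window of each of the 122 Vmn2r genes (rows, in chromosomal order, lines between clusters) in each of the 6 lists (columns), with white for 0 and the darkest colour for 11 to 24. Dark rows are few (Vmn2r30, Vmn2r44, Vmn2r49, Vmn2r111, Vmn2r112), and blocks of white rows stand beside them in the chromosome 7 cluster.

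The members formed 18 clusters where a gap of 1 Mb ends a cluster, 6 of them with a single gene, and 16 had calls. In 2 clusters the density in M was far above the others, at means of 5.33 and 3.34 over the 3 amounts, against at most 1.54 elsewhere. In RS their means were 3.85 and 2.71, and Vmn2r28, a cluster of 1 gene with 3 calls, had 2.95. At single amounts of both stages other clusters also passed at least 1 of the 2. In M at 2 U Vmn2r18, with 2 calls, had 2.825, above the 2.44 of the lower of the 2. Vmn2r28, with 1 call there, also lay above that value. In RS Vmn2r118 had 2.78 at 0.5 U. At 1 U in RS Vmn2r28 had 7.95 and Vmn2r19 to Vmn2r27 had 2.48, and at 2 U Vmn2r8 to Vmn2r17 had 2.40. The 2 clusters were singled out after their values were seen, and are described with no test. The first holds the 7 genes Vmn2r111 to Vmn2r117 at chr17:22547941-23479597. Its windows had 18, 18 and 13 calls in M at 0.5, 1 and 2 U and 67, 5 and 5 in RS. That is 7.45 (4.42 to 11.8), 5.15 (3.05 to 8.14) and 3.40 (1.81 to 5.81) times the autosomal mean in M, and 6.21 (4.81 to 7.89), 2.08 (0.674 to 4.85) and 3.27 (1.06 to 7.63) times in RS. Sequence between its gene windows was much less dense, at 1.17 times the mean in M and 1.40 in RS, averaged over the amounts.

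The second dense cluster holds the 24 genes Vmn2r29 to Vmn2r52 at chr7:7212996-10176286. It had 38, 47 and 36 calls in M, against 87, 34 and 14 in RS. The density was 4.08 (2.89 to 5.60), 3.49 (2.56 to 4.64) and 2.44 (1.71 to 3.38) in M, and 2.09 (1.68 to 2.58), 3.66 (2.54 to 5.12) and 2.38 (1.30 to 3.99) in RS. Here the sequence between the gene windows was about as dense as the windows, at 3.30 in M, against 2.94 in RS against 3.34 and 2.71. The calls of this stretch were thus not confined to the genes.

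Together the 2 clusters hold 31 genes, and the other 91 members lay close to the autosomal mean. Those 91 had 61, 70 and 49 calls in M, a density of 1.37 (1.05 to 1.76), 1.09 (0.846 to 1.37) and 0.694 (0.513 to 0.917). In RS they had 199, 41 and 16 calls, a density of 1.00 (0.866 to 1.15), 0.923 (0.662 to 1.25) and 0.567 (0.324 to 0.921). Both 2 U values lay below the mean and the M value at 0.5 U above it. Without the 2 clusters the mean log2 ratio of RS over M was -0.32 (-0.67 to 0.037), which includes 0.

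Stage ratios of single clusters could not be told from 0: 0 of 18 intervals of the mean ratio excluded it. Raw counts of the stages are not comparable, as the lists differ in size, so mean densities over the amounts are given beside them. The largest set outside the 2 dense clusters was Vmn2r90 to Vmn2r110 on chromosome 17, with 22 genes (Vmn2r124 among them). It had 64 calls in each stage, a density of 1.47 in M, against 0.987 in RS. Next came Vmn2r65 to Vmn2r79 on chromosome 7, with 15 genes, 19 calls in M and 33 in RS. Its density was 1.05 in M, against 0.513 in RS. This set had 32 of its 33 RS calls at 0.5 U and 12 of its 19 M calls at 0.5 U. The 10 genes Vmn2r8 to Vmn2r17 on chromosome 5 had 7 calls in M, against 32 in RS, 26 of them at 0.5 U. Their density was 0.577 in M, against 1.49 in RS. The 9 genes Vmn2r19 to Vmn2r27 on chromosome 6 had 21 calls in M, against 33 in RS, a density of 0.831, against 1.24. Of their M calls 8 and 12 were at 1 and 2 U and 1 at 0.5 U, an order opposite to that of the whole family.

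The calls sat in few members. The 8 genes with the most calls held 36.8% of them in 10.31% of the window length, and the 4 leading genes held 25.31% in 2.413%. The leading gene was Vmn2r44 (chr7:8367460-8383238, minus strand), with 10, 16 and 8 calls in M at 0.5, 1 and 2 U and 21, 9 and 5 in RS. Its 69 calls came to 38.8 per 10 kb. Per 100000 autosomal calls it ranged from 12.82 to 28.1 in M and from 11.95 to 22.94 in RS, so the stages overlapped.

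Vmn2r112 (chr17:22601148-22619133, plus strand) came next with 11, 7 and 4 calls in M, against 24, 4 and 0 in RS, or 25.02 per 10 kb. Vmn2r49 (chr7:9976245-9992139, minus strand) had 7, 6 and 8 calls in M, against 10, 13 and 2 in RS, or 25.7 per 10 kb. Its 33.13 calls per 100000 in RS at 1 U were the highest value of any of its lists, and its stages overlapped. Vmn2r50 (chr7:10037235-10053178) had 6, 5 and 3 calls in M, against 4, 4 and 3 in RS, with 7 of its 25 calls, all from RS, in the dense bin it touches. Its mean log2 ratio of RS over M was -0.37 (-1.47 to 0.72), and -1.86 (-3.60 to -0.12) without that bin. Vmn2r44, Vmn2r49, Vmn2r50 and Vmn2r111 were the 4 members with a call in all 6 lists (3.279%), against 4.81% of all genes and 0.917% of genes of like length.

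Vmn2r30 (chr7:7312211-7337493, minus strand) was the member with the largest excess in M. It had 8, 12 and 9 calls there and 11, 0 and 2 in RS, which is 20.32, 21.07 and 14.43 per 100000 in M, against 6.26, 0 and 8.03 in RS. The stages did not overlap in this gene. Its mean log2 ratio was -2.14 (-3.72 to -0.57) with 0.5 added to each count, a value that depends on that addition because 1 list is at 0. Vmn2r48, in the same cluster, had 4, 2 and 4 calls in M, against 2, 0 and 0 in RS, with -2.21 (-4.37 to -0.054) under the same limit. With every call counted these were the 2 of 122 members whose interval excluded 0, with no allowance for the number of members looked at. The stages did not overlap in Vmn2r48 either. The shares of all genes without overlap, or with an interval excluding 0, were not counted. Both traits are thus given as description alone.

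The other members with a large excess in M were Vmn2r112, Vmn2r93 and Vmn2r60. Vmn2r93 had 4, 0 and 7 calls in M, against 2, 0 and 0 in RS, and Vmn2r60 had 6, 3 and 3 against 7, 2 and 0. The 5 with the largest excess in RS were Vmn2r23, Vmn2r111, Vmn2r27, Vmn2r32 and Vmn2r31. Vmn2r23 had 0, 1 and 0 calls in M, against 3, 3 and 2 in RS. Vmn2r111, the neighbour of Vmn2r112 with a start region 98.33% identical to it, had 2, 3 and 3 in M, against 18, 1 and 4 in RS. Vmn2r27 had none in M, against 3, 3 and 0 in RS. Each of these intervals included 0.

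Counts of members with a known role ranged from 1 to 17 over the 6 lists. Vmn2r1 to Vmn2r7 are the family C receptors, which neurons of the basal layer make together with a receptor of another family. These 7 genes, on chromosome 3, had 8, 9 and 2 calls in M, against 14, 3 and 0 in RS, a mean density of 1.10 in M, against 0.438 in RS. The largest number, 17 of 36, lay in Vmn2r1 (7, 1 and 1 in M, 7, 1 and 0 in RS), the longest member. The window of Vmn2r2 overlaps it and shares 13 of these calls. Vmn2r3 had 8 calls over the 6 lists, Vmn2r4 5, Vmn2r5 1, Vmn2r6 3 and Vmn2r7 2.

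Vmn2r26, which responds to peptides that bind MHC class I, had 0, 0 and 6 calls in M, against 2, 3 and 0 in RS. Vmn2r53, known from aggression between males, had 4 calls in all, and Vmn2r88, which responds to haemoglobin, had 2. Vmn2r116, the receptor for the tear peptide ESP1, had 0, 0 and 2 calls in M, against 7, 0 and 0 in RS. Vmn2r115, the receptor for ESP22, had 1, 1 and 1 in M, against 7, 0 and 1 in RS. Both belong to the dense chromosome 17 cluster, of which Vmn2r111 and Vmn2r112 held most calls, with 31 and 50. None of these known receptors differed between the stages beyond counting error.

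Outside the 2 dense clusters the member with the most calls had from 2 to 21. Besides Vmn2r1, Vmn2r26, Vmn2r60 and Vmn2r88, it was Vmn2r13 on chromosome 5 with 8 calls, Vmn2r18 with 3, Vmn2r28 with 4, Vmn2r56 with 9, and Vmn2r66 with 10, 5 in each list at 0.5 U. On chromosome 10 Vmn2r81 had 13 and Vmn2r85 had 3. On chromosome 17 Vmn2r91 had 13, Vmn2r118 had 8, 7 of them in RS at 0.5 U, and Vmn2r120 had 2. Ties were settled by symbol: Vmn2r93 and Vmn2r94 also had 13, in the cluster of Vmn2r91, and Vmn2r17 had 8, as Vmn2r13 did.

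Of the 21 members with no call in any list, 10 were in the dense chromosome 7 cluster itself. There 182 of 256 calls (71.09%) lay in Vmn2r30, Vmn2r44, Vmn2r49 and Vmn2r50, while Vmn2r33 to Vmn2r37, Vmn2r40 to Vmn2r42, Vmn2r46 and Vmn2r47 had none. Some of these lay in wide stretches without a single call. The stretch chr7:9349695-9862106, 512.4 kb long and the 9th longest of 307 autosomal stretches over 100 kb, holds Vmn2r46 and Vmn2r47. The stretch chr7:7728188-8096326, 368.1 kb long, holds Vmn2r35 and Vmn2r36, and chr6:123398268-123637001, 238.7 kb long, holds Vmn2r21. Vmn2r122 and Vmn2r129, each listed as the lone member of its cluster on chromosome 4, lie outside the span of calls on that chromosome and had none. The listed end of Vmn2r122, at 11935, is far before the first call midpoint there, at 3067917. Its place on the chromosome is therefore uncertain, though it stays in the counts of members and clusters.

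Counts of members with identical start regions differed in 3 of the 4 pairs by 10 or more calls. Vmn2r32 and Vmn2r49 share the printed start region, and had 16 and 46 calls. Vmn2r31 had 12 calls and Vmn2r33, with the same start region, 0. Vmn2r45 had 10 and Vmn2r34, again the same in that region, 0. The remaining pair, Vmn2r126 and Vmn2r62, had 2 and 1. Among members with another start region at least 90% identical, 14 of 68 had no call, against 3 of 47 of the less similar members. The shares were close to each other at the other limits: 7 of 45 against 10 of 70 at 95%, and 4 of 25 against 13 of 90 at 98%. The median calls per 10 kb were 1.61 and 1.71 at 90%, 1.74 and 1.67 at 95%, and 2.43 and 1.67 at 98%. Calls per 10 kb had a rank correlation of 0.020 with the identity to the nearest member, over 115 genes that share the same lists. The part of read placement in these values was not tested.

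Along the genes no region stood out in both stages. For the 115 members with a known strand, the body was cut into 5 equal parts. In M they had 76, 72, 50, 52 and 90 calls from the first to the last, and in RS 92, 120, 71, 80 and 75. The last part was the highest in M and the second part in RS. The 1 kb upstream of the gene start had 12 calls in M, against 22 in RS, and the 1 kb downstream of the gene end had 1 in M, against 10 in RS. The M value downstream was 0.0087 calls per kb (0.00022 to 0.048), below its gene parts at 0.081 to 0.145. The gene table has no exons, so calls were not assigned to exons or introns.

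Calls that chained within 140 bp of each other's midpoints were joined to positions, which gave 451 in the member windows. Of these 413 (91.57%) were found in 1 list, 195 of them in RS at 0.5 U, and 38 in 2 or more. Positions found in M alone numbered 173, in RS alone 248, and in both stages 30. Those in 2 or more lists were concentrated: 25 lay in the chromosome 7 cluster among 87 positions there, 8 in the dense chromosome 17 cluster among 62, and 5 among the 302 positions of all other members. All 12 positions in 3 or more lists lay in these 2 clusters, which had been picked for their high call density in these same lists.

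One position was called in all 6 lists. It lies inside Vmn2r44 at chr7:8368854-8369291, 14166 bp from the gene start, toward the end of the gene. It had 3, 3 and 2 calls in M, against 2, 3 and 3 in RS, with at most 10 implied reads. A position in Vmn2r50 at chr7:10047362-10047711, 5642 bp from the gene start, was called in 5 lists, with 3, 3 and 1 calls in M, against 2, 2 and 0 in RS. Positions in 4 lists were in Vmn2r49 at 3243 bp, in Vmn2r112 at 2053 bp and in Vmn2r44 at 12818 bp from the gene start. No call in a member had more than 12 implied reads, whereas calls of other protein-coding genes outside dense bins reached 145 to 160 in each list. Other genes had far more calls, and a maximum grows with their number. The share of calls above the minimum, outside dense bins, was 23.7% to 37.5% in members over the 6 lists. It was 19.84% to 26.77% in other genes, and 10% to 26.63% in members without the 2 dense clusters.

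**Figure D3:**
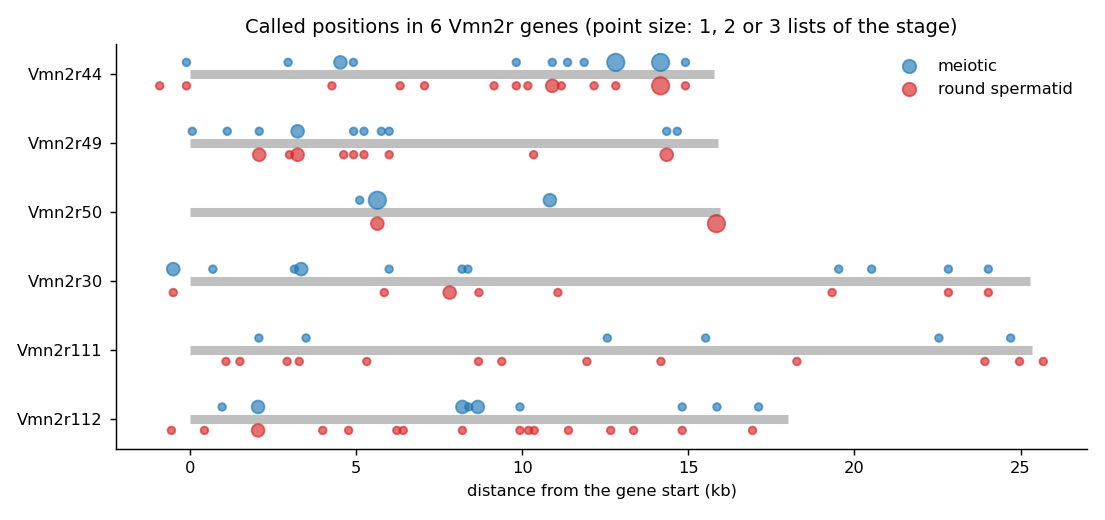
Called positions along 6 Vmn2r genes (rows; grey bars are gene bodies) by distance from the gene start in kb, with blue points for the meiotic fraction, red for round spermatids and point size for the number of lists of that stage (1, 2 or 3). Most positions are small points of 1 stage; the large blue and red points that face each other at 14166 bp in Vmn2r44 are the position called in all 6 lists.

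The share of calls found again in another list, within 73 bp and outside dense bins, was high over all members. It was 22.2%, 31.1% and 20.4% in M at 0.5, 1 and 2 U, and 11.4%, 37.2% and 31.25% in RS. Other protein-coding genes had 9.04%, 8.52% and 7.78% in M and 3.86%, 8.68% and 9.91% in RS. Without the 2 dense clusters the member shares were 0%, 7.14% and 2.04% in M and 1.51%, 0% and 0% in RS. They were below those of other genes in every list, but the sets are unlike. The 2 clusters were left out for their high density in these same lists, while other genes kept their densest loci outside dense bins. The member shares without the 2 clusters rest on 61, 70, 49, 199, 41 and 16 calls. Of these 0, 5, 1, 3, 0 and 0 were shared, so single calls set the shares.

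**Figure D4:**
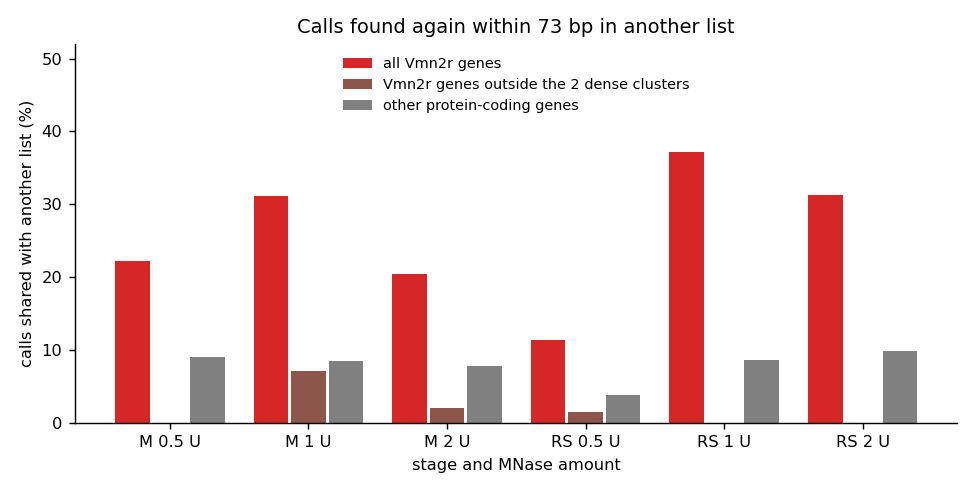
Percent of calls outside dense bins that another list repeats within 73 bp (vertical axis) in each list (horizontal axis), for all Vmn2r genes, for the 91 outside the 2 dense clusters, and for other protein-coding genes. Red bars (11.4% to 37.2%) stand above the grey ones (3.86% to 9.91%) in all 6 lists. Brown bars (0% to 7.14%) stand below the grey ones, but they leave out clusters picked for their density, and the grey ones do not.

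Other genes of the vomeronasal system were counted in the same way. The 37 Esp and Mup genes, which encode protein ligands of these receptors, had 20, 21 and 12 calls in M, against 51, 13 and 1 in RS. Their density was 4.10 (2.51 to 6.34), 2.98 (1.84 to 4.55) and 1.55 (0.803 to 2.71) in M and 2.34 (1.75 to 3.08), 2.68 (1.43 to 4.58) and 0.324 (0.0082 to 1.81) in RS. As in the receptors, density was highest in M at 0.5 U, with a change of -1.38 (-2.39 to -0.36) on the log2 scale from 0.5 to 2 U.

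The 13 genes of the signalling chain, which include Trpc2 and Gnao1, had 15, 35 and 38 calls in M, against 84, 20 and 16 in RS, with densities from 0.643 to 1.08 over the 6 lists. The 9 H2-Mv genes, MHC class I genes of the same neurons, had 4 calls in M at 2 U, 4 in RS at 0.5 U and 0 elsewhere. The 7 formyl peptide receptor genes, some of them vomeronasal, had 3 and 10 in these lists and 0 elsewhere. A round limit of 3 calls was taken for a count of 0, somewhat below the upper end of its exact Poisson interval. The 19 other class C receptor genes, among them receptors for glutamate, calcium, GABA and taste, had 67, 85 and 96 calls in M, a change of -0.15 (-0.60 to 0.30) from 0.5 to 2 U, and 297, 68 and 15 in RS, a change of -1.44 (-2.18 to -0.71).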

How the data were processed

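Nucleosome calls of 6 groups, each with 2 samples, were analysed. Per the submitters' processing notes reads were processed with STAR 2.5.2a and the build was GRCm38 (mm10). What called the nucleosomes, and at which threshold, is not given in the sources used here. By the design text, the authors made each list from both samples of a group. Each call carries a p-value deposited by the authors, used only to rank or filter calls within a list. Implied reads were obtained by matching these p-values to Poisson tails (largest difference of natural logarithms 1.1e-11 or less in every list).

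Genes and promoter windows came from RefSeq tables of the same build, which hold no exons. Calls were counted by midpoint (start plus 70 bp) in the union of gene windows. Densities carry exact Poisson intervals, and log2 ratios, with 0.5 added to each count, normal intervals. Clusters were members less than 1 Mb apart. Promoter identity is over the aligned bases of 2 windows. No test was run, as the lists have no replicates. Depth of the libraries is unknown.

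Members and gene lists were chosen with earlier results of these data known. Named members were 12 with a known role, the 8 with the most calls, the leader of each cluster, the 5 with the largest excess in M and the 5 in RS among those with at least 5 calls, and those with promoter calls in at least 2 lists. Any further member was named with its values already known. Alternatives changed the calls, the window, the total, the amounts, the clusters and the members counted. The counting steps were tested on simulated lists. Analyses used Python 3.11.15, numpy 2.4.6, pandas 2.3.3, scipy 1.17.1, Biopython 1.88 and matplotlib 3.10.9.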

Additional observations from a re-analysis of the deposited data

Results flagged for a closer look

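Outside the protein-coding members, 30 other Vmn2r loci of the gene table had more than 3 calls over the 6 lists. The cut-off is the same round limit for a count of 0, and the 4 loci with the most calls are given here. They are pseudogenes, copies without an intact reading frame. Vmn2r-ps16 on chromosome 4 had 1145 calls over the 6 lists, with 94, 145 and 157 in M at 0.5, 1 and 2 U and 431, 170 and 148 in RS. Vmn2r-ps17 had 374 and Vmn2r-ps20 had 120, both on the same chromosome. The listed spans are wide, at chr4:146445134-146605510 for Vmn2r-ps16 and chr4:146124687-146264826 for Vmn2r-ps17. Calls counted there need not lie on the pseudogene sequence itself, and they were not corrected for length or dense bins. Vmn2r-ps46 at chr7:8399202-8422775, the locus beside Vmn2r44, had 75, with 10, 23 and 10 in M, against 17, 10 and 5 in RS. In all, 51 of 146 Vmn2r-ps pseudogenes had a call, and 1639 of their 2054 calls lay in the 3 named here on chromosome 4. The median pseudogene had 0. Shares of all pseudogenes with a call, or with more than 3, were not counted, and the loci differ widely in length. The 51 pseudogenes and the 30 loci are thus description alone.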

How the results depend on the processing

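Of the comparisons of the family recomputed under alternatives, 90 values stayed within the counting interval (counts of members or clusters within 1.5 times), 12 moved outside it and 1 reversed. Keeping only calls above 6 implied reads turned the mean log2 ratio of RS over M to 0.11 and the ratio at 2 U to 0.69, gave densities of 1.34 in M at 1 U and 1.43 in RS at 2 U, and left 67 members with a call; the cause was not tested, though fewer calls remained. Pairing lists with about equal MNase per cell (RS at 1 U with M at 0.5 U, RS at 2 U with M at 1 U) gave a mean of -0.64. Windows with 5000 bp on each side gave 1.35 in M at 2 U. Leaving out the dense clusters on chromosomes 7 and 17, an alternative chosen after seeing the data, gave densities of 1.37, 1.09 and 0.694 in M, against 1.00, 0.923 and 0.567 in RS.

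A gap of 0.5 Mb gave 20 clusters. Over 32 alternatives the mean ratio was below 0 in 31, and its interval included 0 in 3. Of these, 18 left out 1 cluster each, which gave -0.40 to -0.27. The clusters on chromosome 4 hold no call, so leaving them out could not change the ratio. Among named members 69 of the recomputed ratios stayed within their intervals. That of Vmn2r50 went from -0.37 to -1.86 without the dense bin. No other member touches a dense bin, so for the others leaving such bins out changed the total alone. No paired analysis was possible because each list was made from both samples of a group, and for the same reason no replicate could be left out. With most calls at the minimum, 1 read more or fewer decides the presence of a single call.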
